A study of Mus musculus with 17 samples.

Results

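Cells of the dorsal wall of the postnatal subventricular zone were compared with cells of its lateral wall 8 hours after electroporation, on 2 of the 17 arrays of the series. Both arrays were chosen by their labelled time point, and the other 15 arrays hold later times. Each array held a dorsal sample labelled with Cy3 and a lateral sample labelled with Cy5. In both samples, progenitors of the named wall had been electroporated in vivo in CD1 mice at postnatal day 1, and GFP-positive cells had been collected by fluorescence-activated cell sorting. The later groups, used to set the 8 hours difference beside later ones and to estimate the spread, were the same walls at 1, 2, 4, 7 and 14 days. The sorted cells are those that took up and expressed the plasmid, and the sources used here do not say how many animals a sample pools. Arrays of 1 time point are labelled biological replicates, and p-values rest on the spread between such arrays, pooled over all times.

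The subventricular zone lines the lateral ventricle and keeps making neurons and glia after birth. Its dorsal wall descends from the pallium, the embryonic source of excitatory cortical neurons, and its progenitors use transcription factors such as Emx1, Pax6 and Neurog2. Its lateral wall descends from the subpallium, the source of inhibitory interneurons, whose progenitors use Gsx2 and the Dlx homeobox factors. In either wall, radial glia and astrocyte-like stem cells give rise to fast-dividing transit amplifying cells, which make migrating neuroblasts.

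The presence of progenitor markers was looked at first. All 17 measured radial glia genes were well above background on at least 1 array of each wall. Among them were Fabp7, a fatty acid binding protein, Vim, an intermediate filament, and Slc1a3, a glutamate transporter. This checks neither the wall labels nor the sort. Of 26458 genes tested, only 4189 were so on no dorsal array and 4298 on no lateral one, and all 15 microglia genes were so in each wall. The dorsal samples had 71.9 and 71.7% of probes well above background and the lateral samples 67.2 and 72.4%, and no spot was saturated. The log ratios of the 2 arrays correlated at r = 0.404 across genes, which are not independent replicates. The dyes were not swapped on any array, so a constant dye effect of a probe and a wall difference at 8 hours cannot be told apart. Such an effect cancels when a later time is subtracted only if the probe has signal well above background at that time. Both arrays lay on 1 slide, with 1 array of 4 days and 1 of 7 days. The labels name the dorsal RNA polyA RNA and the lateral RNA total RNA. In sorted samples of many cells, fewer cells of a type and less RNA per cell cannot be told apart.

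The promoters of 4 genes are shown for orientation, those of Dlx2 and Dmrta2 as the called territory factors, Dlx1 as the neighbour of Dlx2, and Dct as the called gene with the widest dorsal difference, as RefSeq gives them on GRCm38.p6, 250 bases before to 50 after the transcription start. Dlx2 (chr2:71546705-71547004, minus strand) and Dlx1 (chr2:71529195-71529494, plus strand) are neighbouring homeobox genes of the lateral wall, and Dmrta2 (chr4:109977775-109978074, plus strand) and Dct (chr14:118052197-118052496, minus strand) were higher in the dorsal wall. Capitals mark CANNTG, the E-box read by basic helix-loop-helix factors such as Neurog2, searched on both strands.
Dlx2: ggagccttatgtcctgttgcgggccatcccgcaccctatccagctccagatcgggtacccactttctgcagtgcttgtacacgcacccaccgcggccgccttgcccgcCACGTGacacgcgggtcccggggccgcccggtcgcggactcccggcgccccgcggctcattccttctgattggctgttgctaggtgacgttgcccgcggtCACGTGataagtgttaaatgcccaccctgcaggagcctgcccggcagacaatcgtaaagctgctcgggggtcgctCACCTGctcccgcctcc
Dlx1: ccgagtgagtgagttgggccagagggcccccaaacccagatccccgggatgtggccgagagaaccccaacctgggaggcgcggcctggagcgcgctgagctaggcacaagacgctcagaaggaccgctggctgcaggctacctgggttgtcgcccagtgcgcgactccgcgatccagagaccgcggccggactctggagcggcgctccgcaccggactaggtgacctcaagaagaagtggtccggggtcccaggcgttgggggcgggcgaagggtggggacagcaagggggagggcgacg
Dmrta2: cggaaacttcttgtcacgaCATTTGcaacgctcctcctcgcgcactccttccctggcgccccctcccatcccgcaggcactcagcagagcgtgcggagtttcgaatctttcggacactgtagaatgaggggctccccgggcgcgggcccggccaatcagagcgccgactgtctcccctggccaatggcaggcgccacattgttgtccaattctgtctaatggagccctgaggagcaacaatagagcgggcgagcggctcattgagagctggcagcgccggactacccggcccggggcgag
Dct: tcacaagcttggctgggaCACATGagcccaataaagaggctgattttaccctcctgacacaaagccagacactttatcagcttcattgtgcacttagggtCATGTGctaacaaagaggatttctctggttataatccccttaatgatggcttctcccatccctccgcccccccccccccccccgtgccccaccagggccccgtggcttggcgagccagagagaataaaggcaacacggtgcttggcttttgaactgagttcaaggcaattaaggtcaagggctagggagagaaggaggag
The Dlx2 promoter held 3 such sites, starting at positions -142, -42 and 34 from the transcription start, Dct held 2, Dmrta2 held 1 and Dlx1 held 0. Of all 32851 promoters in the RefSeq table, 72.3% held at least 1 CANNTG. Both sites of Dct read CATGTG or its reverse complement, a form that 14.2% of all promoters held. The Dlx2, Dlx1 and Dmrta2 windows had 29, 27 and 26 CG dinucleotides, against 5 in Dct and a median of 7 over all promoters. These matches describe the letters of the windows only.

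The wall difference of each gene was tested as the log2 ratio within each array, dorsal minus lateral, where positive values are higher in the dorsal sample. In limma's fit over all 17 arrays, 100 of 26458 genes (0.378%) differed between the walls at 8 hours with a Benjamini-Hochberg adjusted p under 0.05. Of these, 74 were higher in dorsal cells (0.28% of genes tested) and 26 were lower (0.0983%), and all 100 had the same sign on both arrays. With 0.378% of genes called, a short gene list mostly holds no called gene, so a count of 0 in a list says little about it. The largest dorsal differences were in Dct, Dysf and Lama1, and the largest lateral ones in Dlx2, Adgrf5 and Ccl11. The calls draw on the spread at the later times: with the 8 hours arrays alone 0 genes passed, with 3883 at an unadjusted p under 0.05, and with 8 hours, 1 day and 2 days alone also 0, with 1848. The fit takes 1 spread per gene for all times, but the times were not alike. The mean variance of the log ratios within a time was 0.554 at 8 hours and between 0.738 (2 days) and 2.42 (1 day) later. Without 8 hours replicate 1 the fit over all times called 63 genes, and without replicate 2 it called 190. Called genes were often near background later: they were well above background on a median of 6 of the 15 other arrays, against 15 for all genes tested, and their median residual SD was 0.424, against 1.01 for all genes tested. For such genes, fits that leave out 1 later array reuse the small spread of the others. A difference of 2 or more on the log2 scale was seen in 831 genes, 614 higher and 217 lower in dorsal cells, of which 64 passed the test.

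**Figure D1:**
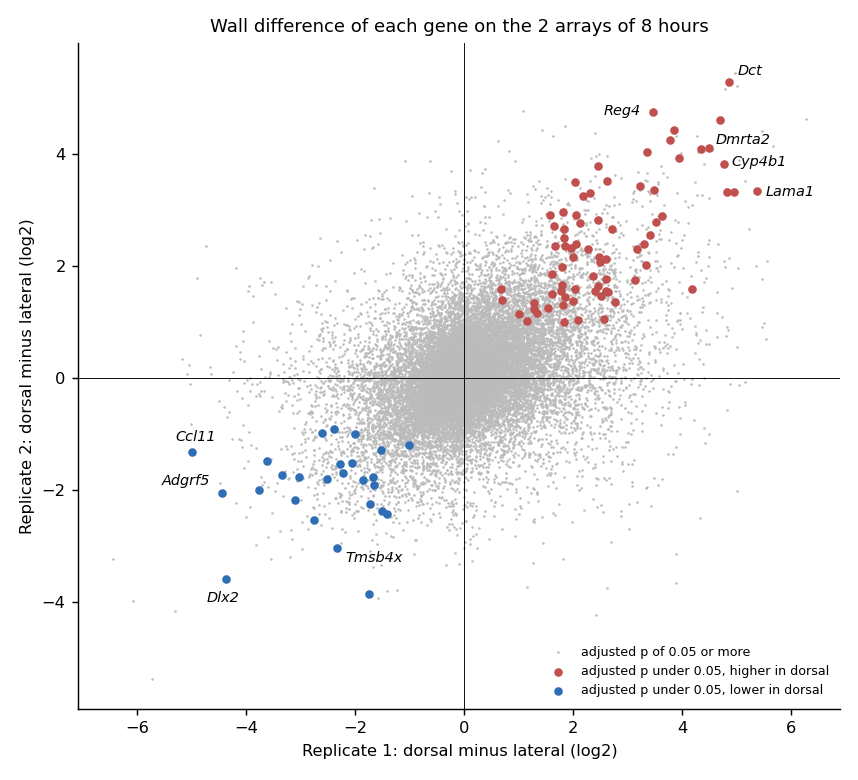
Dorsal minus lateral log2 ratio of each gene on replicate 1 (x axis) and replicate 2 (y axis) at 8 hours. Red and blue points are the 74 genes higher and the 26 genes lower in dorsal cells at an adjusted p under 0.05, all in the quadrants where both arrays have the same sign, and grey points are the other genes.

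Among the transcription factors of the 2 territories, Dlx2 and Dmrta2 differed between the walls and no other listed factor passed the test. Dlx2, a homeobox factor that drives interneuron production, had levels of 6.76 and 7.36 (log2 intensity) in dorsal cells, against 11.13 and 10.96 in lateral cells. Its difference was -3.99 ± 0.33 (mean of 2 arrays, SE from the fit over all 17, adjusted p = 0.000336 by limma). It passed in all 17 fits that each left out 1 array. Dlx1, its neighbour and close relative, had 7.43 and 8.23 in dorsal cells, against 11.25 and 11.21 in lateral cells. The levels of Dlx1 did not overlap between the walls either, but with a larger SE its difference of -3.40 ± 0.80 did not pass (adjusted p = 0.131). Gsx2, which acts upstream of the Dlx genes, was well above background on 1 of 2 dorsal arrays, at levels of 6.54 and 6.61, against 7.75 and 7.40 in lateral cells (adjusted p = 0.24). Dlx5, another member of the Dlx family, had 7.53 and 8.58 in dorsal cells, against 9.36 and 8.96 in lateral cells (adjusted p = 1). Of the 18 measured members of the subpallial list, 1 was called lower (0.0983% of genes tested), 13 were lower and 5 higher in the mean of the arrays, and the median was -0.23, beside -0.02 over all genes tested. Of the list, 8 members had both lateral levels above both dorsal ones (27.8% of genes tested) and 3 the other way (24.9%), while 3 were more than 1 log2 unit lower in dorsal cells on both arrays (2.76%) and 1 was as much higher (5.32%).

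Dmrta2, a DM-domain factor that maintains cortical progenitors, had levels of 11.99 and 11.67 in dorsal cells, against 7.49 and 7.57 in lateral cells. Its difference was 4.30 ± 0.64 (SE, adjusted p = 0.00899 by limma), and it did not pass without 8 hours replicate 1 (adjusted p = 0.17) or replicate 2 (0.0602). It was the only member of the pallial list that passed, 1 of 17 measured (0.28% of genes tested were called higher), while 12 of the 17 had both dorsal levels above both lateral ones (24.9% of genes tested) and 7 were more than 1 log2 unit higher on both (5.32% of genes tested). Tfap2c, of the AP-2 family of transcription factors, had the widest gap, with 13.71 and 13.99 in dorsal cells, against 8.05 and 9.85 in lateral cells (4.90 ± 1.35, adjusted p = 0.233). Fezf2, which specifies deep-layer projection neurons, had 11.21 and 11.63 in dorsal cells, against 7.29 and 8.84 in lateral cells. Emx1, the classical marker of pallial progenitors, had 11.44 and 12.25 in dorsal cells, against 9.21 and 9.07 in lateral cells. The levels of these 3 genes did not overlap between walls, with adjusted p of 0.233 to 0.547. Tbr1, a factor of newborn excitatory neurons, had 9.68 and 10.79 in dorsal cells, against 6.57 and 7.45 in lateral cells. Neurog2, which starts excitatory neurogenesis, was well above background on both dorsal arrays and on neither lateral one, at 8.07 and 8.99 against 6.17 and 5.85. Pax6 had 10.32 and 10.61 in dorsal cells, against 8.53 and 9.72 in lateral cells, and its second probe gave a larger difference of 3.40. The median of the pallial list was 1.12, and 1.12 also with each array's log ratios centred on the median in place of loess.

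Zic factors, zinc finger proteins of dorsal progenitors and of some olfactory bulb interneurons, were all on the dorsal side in the mean of the arrays, with a median of 1.19 over 5 genes. Zic2 had 9.89 and 10.07 in dorsal cells, against 5.92 and 6.04 in lateral cells (4.00 ± 1.24, adjusted p = 0.318). Zic1 had 9.87 and 10.80 in dorsal cells, against 8.02 and 8.10 in lateral cells. None of the 5 passed the test, and 4 had both dorsal levels above both lateral ones (24.9% of genes tested).

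**Figure D2:**
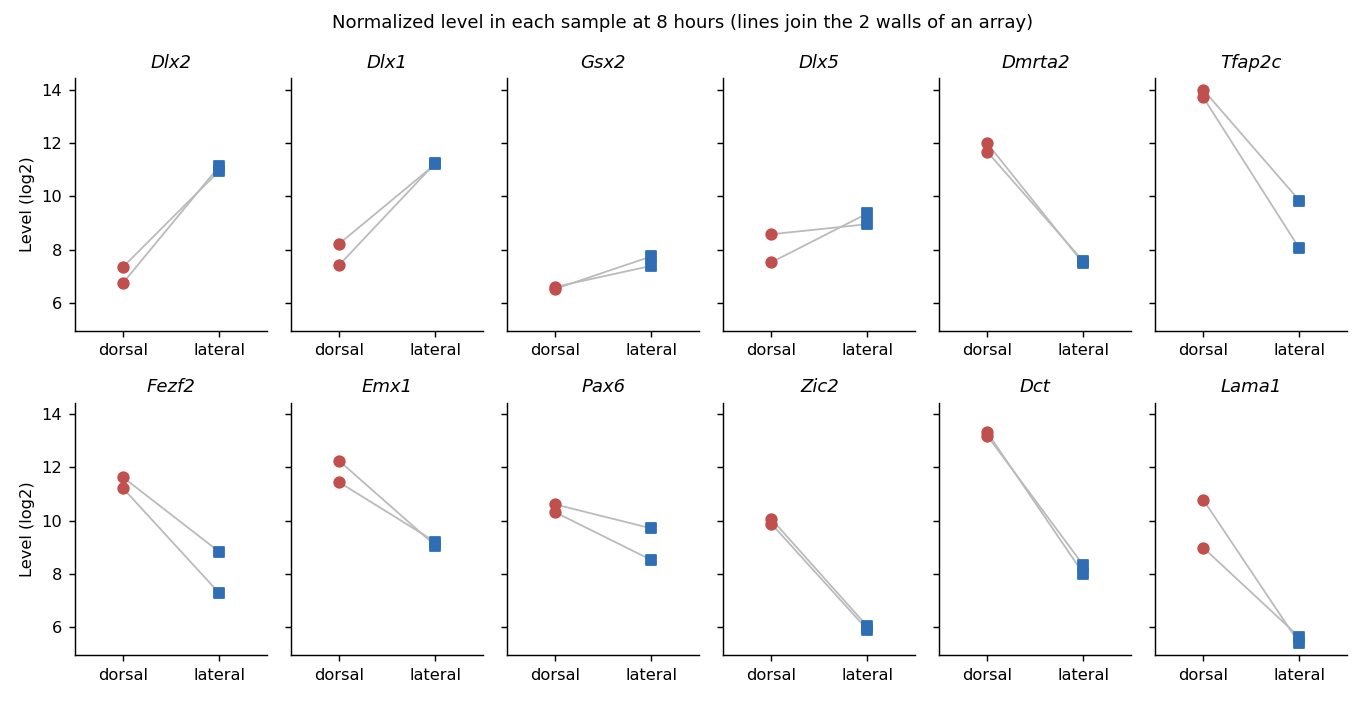
Normalized log2 level of 12 genes in each sample at 8 hours, dorsal (red circles) left of lateral (blue squares), with a line joining the 2 walls of an array. The lines of Dlx2, Dlx1, Gsx2 and Dlx5 run up to the lateral side and those of Dmrta2, Tfap2c, Fezf2, Emx1, Pax6, Zic2, Dct and Lama1 run down.

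Genes of radial glia, astrocytes and ependymal cells lay on the dorsal side and genes of dividing and transit amplifying cells on the lateral side, in lists where no gene passed the test. Of 17 radial glia genes, 13 had both dorsal levels above both lateral ones (24.9% of genes tested) and 2 the other way, and the median was 1.00, but with median centring it was 0.01. Tnc, a matrix glycoprotein of the stem cell niche, had 15.77 and 15.41 in dorsal cells, against 11.59 and 12.32 in lateral cells (3.64 ± 1.17, adjusted p = 0.348), and 1 of its 3 probes gave 0.53. Fabp7 had 18.16 and 17.83 in dorsal cells, against 15.82 and 15.73 in lateral cells. Prom1, a membrane protein of ventricular progenitors and ependymal cells, had 11.14 and 10.77 in dorsal cells, against 9.37 and 9.55 in lateral cells, with the smallest adjusted p of the list at 0.146. Vim had 17.37 on both arrays in dorsal cells and 16.22 on both in lateral cells, yet its sign turned under median centring, to -0.53. Astrocyte genes had a median of 1.13 over 12 genes (0.38 with median centring), and Aldoc, a glycolytic enzyme, had 16.76 and 16.93 in dorsal cells against 14.93 and 14.18 in lateral cells. Mlc1, an astrocyte membrane protein, had 15.83 and 15.84 in dorsal cells, against 14.33 and 13.99 in lateral cells (adjusted p = 0.162).

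Genes of ependymal cells, the ciliated cells that line the ventricle, had a median of 1.48 over 13 genes, with both dorsal levels above both lateral ones for 11 of them (24.9% of genes tested). Rsph1, a radial spoke protein of motile cilia, had 13.91 and 13.77 in dorsal cells, against 11.20 and 12.34 in lateral cells. Rsph4a, another spoke protein, had 11.37 and 10.31 in dorsal cells, against 6.53 and 9.45 in lateral cells, so that its gap was wide on replicate 1 only. Hydin, which builds the ciliary central pair, was the member on the lateral side, at -0.99, and another of its 3 probes gave 1.80.

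On the lateral side, 11 of 12 transit amplifying genes and 17 of 20 proliferation genes had both lateral levels above both dorsal ones, against 27.8% of all genes tested. Their medians were -1.51 and -1.17, and -2.09 and -1.72 with median centring. Mfng, a modifier of Notch receptors, had 10.88 and 10.54 in dorsal cells, against 13.64 and 12.64 in lateral cells (-2.43 ± 0.63, adjusted p = 0.198). Hes6, a helix-loop-helix factor of committed progenitors, had 13.20 and 13.88 in dorsal cells, against 15.46 and 15.22 in lateral cells. Olig2, a factor of transit amplifying cells and of the oligodendrocyte lineage, had 10.20 and 11.37 in dorsal cells, against 13.66 and 13.39 in lateral cells. These 3 genes had no overlap between walls on the probes used, and Egfr was the 1 member on the dorsal side. The second probes of Hes6 and Olig2 gave smaller differences of -0.66 and -0.76, each with opposite signs on the 2 arrays. Mcm2, a subunit of the replicative helicase, had 11.47 and 12.20 in dorsal cells, against 14.19 and 13.85 in lateral cells. Pcna, the sliding clamp of DNA polymerase, had 14.00 and 13.87 in dorsal cells, against 15.11 and 15.21 in lateral cells. All 20 proliferation genes were lower in dorsal cells in the mean of the 2 arrays, and 0 passed the test.

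**Figure D3:**
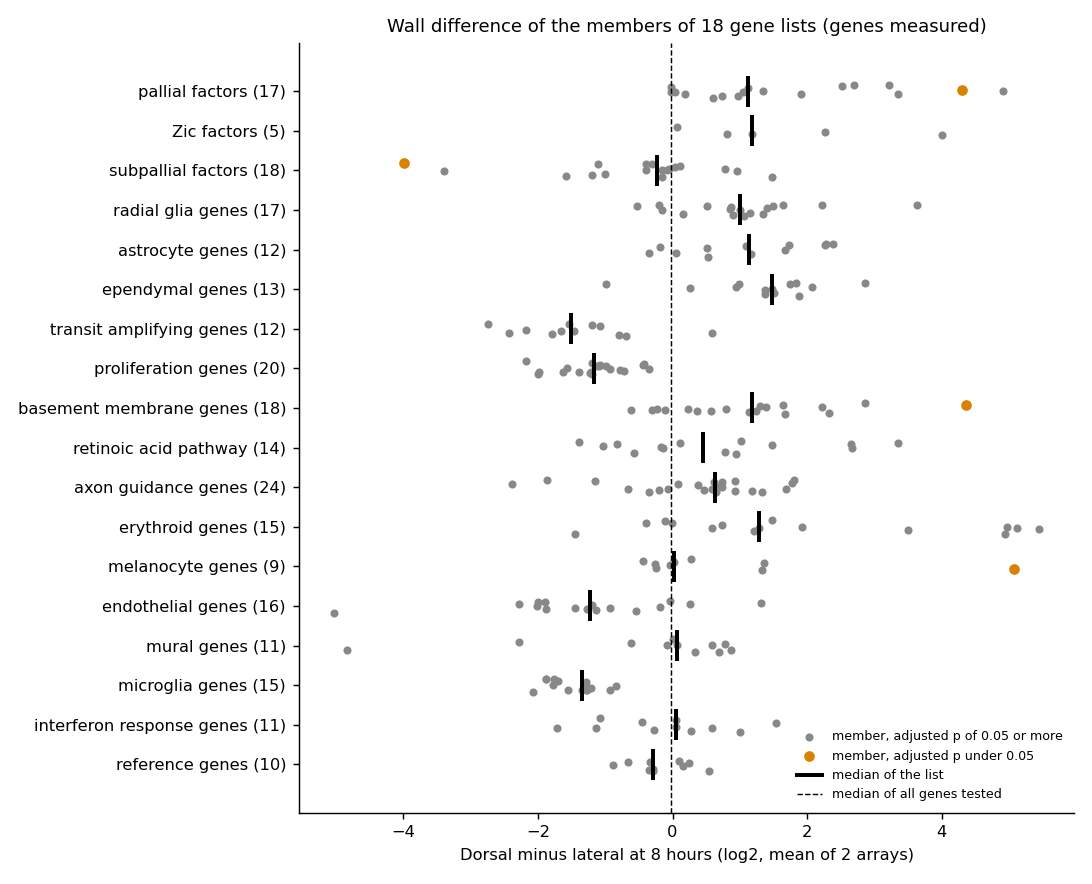
Dorsal minus lateral log2 difference at 8 hours (x axis, mean of 2 arrays) of the measured members of 18 gene lists (y axis, number of genes in brackets). Black bars are list medians, from 1.48 in ependymal genes to -1.51 in transit amplifying genes, the dashed line is the median of all genes tested (-0.02), and orange points are members with an adjusted p under 0.05.

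The 15 called genes with the largest dorsal differences lay between 3.15 and 5.08. Dct, dopachrome tautomerase, a melanin enzyme that is also expressed in cortical progenitors of the mouse embryo, had levels of 13.19 and 13.31 in dorsal cells, against 8.33 and 8.02 in lateral cells (5.08 ± 0.75, adjusted p = 0.00919 by limma), and its other probe gave 5.38. It did not pass without 8 hours replicate 1 (adjusted p = 0.114) or replicate 2 (0.0983). Of the 9 measured melanocyte genes, Dct alone was called (0.28% of genes tested were called higher). The list's summed level was 15324 and 38593 in dorsal cells, Dct included, against 5174 and 7041 in lateral cells, its median difference was 0.02, and all 9 were well above background in at least 1 sample of each wall. The part of melanocytes in the Dct difference was not tested.

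Dysf, a membrane repair protein, had 12.75 and 13.16 in dorsal cells, against 8.05 and 8.54 in lateral cells (4.65 ± 0.62, adjusted p = 0.005). Cyp4b1, a cytochrome P450 enzyme, had 10.87 and 9.87 in dorsal cells, against 6.12 and 6.06 in lateral cells (4.29 ± 0.31, adjusted p = 0.000132). Cyp4b1 had the lowest adjusted p of the comparison. Reg4, a secreted C-type lectin, had 9.29 and 10.62 in dorsal cells and was well above background on neither lateral array. In the mean of the 2 arrays it was at least 17.2-fold higher in dorsal cells (adjusted p = 0.000727). Its log2 differences were 3.46 on replicate 1 and 4.76 on replicate 2. F2rl1, a protease-activated receptor, had 10.88 and 10.42 in dorsal cells, against 6.06 and 7.10 in lateral cells (4.07 ± 0.60, adjusted p = 0.00899). Tcea3, a transcription elongation factor, had 10.48 and 10.58 in dorsal cells, against 6.71 and 6.32 in lateral cells, and its other probe gave 2.52. Cyp4b1 and Reg4 passed in all 17 leave-one-out fits, while Dysf and F2rl1 did not pass without 8 hours replicate 1 (adjusted p of 0.0879 and 0.259) and Tcea3 did not pass without replicate 1 (0.168) or replicate 2 (0.17).

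Lingo1, a Nogo receptor partner, had 10.60 and 10.49 in dorsal cells, against 6.25 and 6.40 in lateral cells, and Kdelr3, a receptor that returns proteins to the endoplasmic reticulum, had 11.09 and 10.28 against 6.14 and 6.95. Both calls lay near the threshold, with adjusted p of 0.0396 and 0.038. On leaving out 1 array at a time, Lingo1 passed in 6 of 17 fits and Kdelr3 in 7. Lingo1 was lost without either 8 hours array (adjusted p of 0.448 and 0.205) and without any array of 4 or 14 days or of 7 days other than replicate 2, and Kdelr3 without either 8 hours array (0.661 and 0.0711), any array of 4 or 7 days, or 14 days replicates 2 and 4. Plppr2, a phospholipid phosphatase-related membrane protein, had 10.98 on both arrays in dorsal cells, against 7.63 and 6.93 in lateral cells. Prrx2, a paired-type homeobox factor of mesenchyme, had 12.24 and 12.23 in dorsal cells, against 8.75 and 8.87 in lateral cells. Ripor3 and Rin1, a Ras effector, were 3.26 ± 0.48 and 3.15 ± 0.51 higher. None of these 4 passed without 8 hours replicate 1 (adjusted p of 0.138, 0.259, 0.211 and 0.327), and without replicate 2 only Ripor3 did (0.196, 0.132, 0.0378 and 0.0623).

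Among genes of the extracellular matrix, Lama1 and Tnn were higher in dorsal cells. Lama1, a laminin chain of basement membranes, had 10.78 and 8.99 in dorsal cells and was well above background on neither lateral array. In the mean of the 2 arrays it was at least 16.9-fold higher in dorsal cells (adjusted p = 0.0396). Its log2 differences were 5.38 on replicate 1 and 3.35 on replicate 2. It passed in 4 of 17 such fits, those without 1 day replicate 1, 2 or 3 or 7 days replicate 3, with adjusted p of 0.721 and 0.0599 without the 8 hours arrays in turn and up to 0.0709 without a later one. Tnn, tenascin N, had 10.17 and 9.66 in dorsal cells, against 6.22 and 5.73 in lateral cells (3.94 ± 0.54, adjusted p = 0.00585), and did not pass without 8 hours replicate 1 (0.103) or replicate 2 (0.0529). Of the 18 basement membrane genes, 1 was called higher (0.28% of genes tested), 11 had both dorsal levels above both lateral ones (24.9%) and 1 the other way, and the median was 1.18 (0.57 with median centring). Lamc1, another laminin chain, had 14.51 and 14.68 in dorsal cells, against 11.85 and 11.61 in lateral cells. Lama2 had 9.85 and 9.13 in dorsal cells, against 6.57 and 7.75 in lateral cells. Neither passed the test, with adjusted p of 0.381 and 0.187.

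The retinoic acid pathway patterns the forebrain through locally made retinoic acid. Of its 14 genes 0 passed (0.378% of genes tested did) and 4 were more than 1 log2 unit higher in dorsal cells on both arrays (5.32%). Aldh1a3, which makes retinoic acid, had 11.50 and 10.77 in dorsal cells, against 8.09 and 7.47 in lateral cells (3.35 ± 0.92, adjusted p = 0.229), and its second probe gave 0.48. Crabp2, which carries retinoic acid to the nucleus, had 9.64 and 8.49 in dorsal cells, against 5.88 and 6.92 in lateral cells. The list's median was 0.45. Of 24 axon guidance genes and 17 cadherins and protocadherins 0 passed (0.378% of genes tested did), with medians of 0.63 and 0.60. Epha3, an ephrin receptor, had 7.00 and 6.86 in dorsal cells, against 9.70 and 8.94 in lateral cells, while another of its 3 probes gave -0.16, and Nrp2, a semaphorin receptor, had 12.33 and 12.27 against 14.06 and 14.29. Pcdh8, a protocadherin, had 13.69 and 13.36 in dorsal cells, against 10.97 and 10.76 in lateral cells.

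The 15 called genes with the largest lateral differences lay between -1.84 and -3.99, Dlx2 at their head. Adgrf5, an adhesion receptor known from lung and endothelium, had 5.91 and 6.78 in dorsal cells, where it was well above background on 1 of 2 arrays, against 10.35 and 8.84 in lateral cells (-3.25 ± 0.38, adjusted p = 0.00234). Gata2, a zinc finger factor of blood and endothelial cells and of some neurons, had 6.86 and 6.68 in dorsal cells, against 10.62 and 8.68 in lateral cells (-2.88 ± 0.39, adjusted p = 0.00585), but its second probe gave -0.10 and the mean over probes did not pass. Adgrf5 passed in all 17 leave-one-out fits, and Gata2 did not pass without 8 hours replicate 1 (adjusted p = 0.166). Endothelial markers lay on the same side without passing the test: of 16 genes 0 were called, 9 had both lateral levels above both dorsal ones (27.8% of genes tested) and 2 the other way (24.9%), and the median was -1.23, at -2.19 on replicate 1 and -0.57 on replicate 2. Cldn5, the tight junction protein of brain endothelium, had 7.11 and 7.20 in dorsal cells, against 13.19 and 11.19 in lateral cells (-5.03 ± 1.61, adjusted p = 0.342). The summed level of the 16 genes was 28532 and 32191 in dorsal cells, against 51236 and 23877 in lateral cells, Abcb1a was well above background in no sample, and Emcn and Tek were so on 1 and 0 dorsal arrays. Vtn, made by pericytes, had 6.32 and 6.53 in dorsal cells, against 12.75 and 9.78 in lateral cells, in a mural list of 11 genes whose median was 0.06. The part of endothelial and mural cells in these differences was not tested.

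The chemokines Ccl11 and Ccl22 were among the called lateral genes. Ccl11, an eosinophil attractant, was well above background on neither dorsal array and had 11.05 and 7.50 in lateral cells. In the mean of the 2 arrays it was at least 8.43-fold lower in dorsal cells (adjusted p = 0.0247). Its log2 differences were -4.98 on replicate 1 and -1.32 on replicate 2. Ccl22, a T cell attractant, had 8.97 and 8.28 in dorsal cells, against 10.72 and 12.14 in lateral cells (-2.80 ± 0.43, adjusted p = 0.0116). Ccl11 did not pass without 8 hours replicate 1 (adjusted p = 0.0745), and Ccl22 not without replicate 2 (0.196). Tnfsf4, the ligand of a T cell costimulatory receptor, and Tnip3, an inhibitor of NF-kappaB signalling, had differences of -2.40 ± 0.24 and -1.95 ± 0.21 and passed in all 17 leave-one-out fits. On the 15 later arrays, however, Tnfsf4 was well above background in 1 dorsal and 1 lateral sample, with ratios between -0.10 and 0.33. Its small SE thus draws on ratios near background, which fits without 1 later array still use. Tnip3 was also dim, with a mean level of 6.49 over all arrays. Zbtb32, a zinc finger repressor of lymphocytes, had -1.90 ± 0.32 (adjusted p = 0.0204) and did not pass without 8 hours replicate 1 (0.469). Lgals1, a galectin, had 13.94 and 14.52 in dorsal cells, against 16.15 and 16.23 in lateral cells (-1.96 ± 0.29, adjusted p = 0.00856), and did not pass without 8 hours replicate 1 (0.207). Tmsb4x, an actin-binding peptide abundant in microglia, had 14.98 and 14.43 in dorsal cells, against 17.30 and 17.47 in lateral cells. Its adjusted p was 0.0436, and it passed in 6 of 17 fits, those without 1 day replicate 1 or 2 or any array of 14 days, where it had no measurement, with 0.207 and 0.352 without the 8 hours arrays in turn.

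The 14 measured chemokines and receptors did not move as 1 group: 4 were more than 1 log2 unit higher and 4 more than 1 lower in dorsal cells on both arrays (5.32 and 2.76% of genes tested), and the median of 0.92 turned to -0.35 with median centring. Cxcl1, a neutrophil attractant, had 16.44 and 16.80 in dorsal cells, against 14.22 and 13.87 in lateral cells. Ccl4, a product of activated microglia, had 14.80 and 14.21 in dorsal cells, against 17.05 and 17.16 in lateral cells, and Ccl5 had 14.40 and 14.57 against 16.64 and 16.76. None of these 3 passed. Microglia markers lay on the lateral side throughout, with both lateral levels above both dorsal ones for 15 of 15 genes (27.8% of genes tested) and a median of -1.35, and 0 of them passed. Their summed level was 167723 and 211555 in dorsal cells, against 500609 and 529611 in lateral cells, and all 15 were well above background in each wall. Tyrobp, a signalling adaptor of microglia, had 14.38 and 14.97 in dorsal cells, against 16.71 and 16.80 in lateral cells. The part of microglia in the chemokine, Lgals1 and Tmsb4x differences was not tested.

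The remaining lateral genes were of mixed function. Nts, the precursor of neurotensin, had 6.10 and 6.92 in dorsal cells, against 9.20 and 9.11 in lateral cells (-2.64 ± 0.37, adjusted p = 0.00687). Slc6a4, the serotonin transporter, had 7.17 and 6.52 in dorsal cells, against 9.92 and 9.06 in lateral cells. Has1, a hyaluronan synthase, had 6.59 and 6.29 in dorsal cells, against 8.45 and 8.12 in lateral cells (-1.84 ± 0.21, adjusted p = 0.0022). Has1 passed in all 17 leave-one-out fits, Nts did not without 8 hours replicate 1 (0.202), and Slc6a4 did not without replicate 1 (0.317) or replicate 2 (0.131). 4921536K21Rik and Heatr9 had adjusted p of 0.033 and 0.0436 and passed in 6 and 4 of the 17 fits. 4921536K21Rik passed without 8 hours replicate 2 and without any array of 1 or 2 days, with 0.776 without 8 hours replicate 1, and its second probe gave 0.66. Heatr9 passed without 1 day replicate 1 or 3 or 4 days replicate 2 or 3, with 0.216 and 0.407 without the 8 hours arrays in turn. Ndnf, a secreted neurotrophic factor made by Cajal-Retzius cells, was the called member of the glutamatergic neuron list (1 of 10 called lower, against 0.0983% of genes tested). It was well above background on neither dorsal array and, in the mean of the 2 arrays, at least 3.2-fold lower in dorsal cells (adjusted p = 0.00519). Slc17a6, a vesicular glutamate transporter of the same list, had 9.55 and 9.45 in dorsal cells, against 6.45 and 6.26 in lateral cells (adjusted p = 0.675), and its second probe gave -0.22.

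Of all listed genes, the globins Hbb-bt and Hba-a1 had the widest dorsal gaps in the mean of the arrays, and neither passed the test. Hbb-bt, an adult beta globin, had 19.13 and 18.46 in dorsal cells, against 12.86 and 13.83 in lateral cells (5.45 ± 1.24, adjusted p = 0.162). Hba-a1, an alpha globin with a near-identical copy, had 19.07 and 18.94 in dorsal cells, against 14.05 and 13.71 in lateral cells. Alas2, the erythroid enzyme of heme synthesis, had 12.82 and 13.33 in dorsal cells, against 7.35 and 8.91 in lateral cells. Tfrc, the transferrin receptor, stood on the other side at -1.45, and Hbb-bs, Rhag and Epb42 had -0.40, -0.12 and -0.01. Of 15 measured genes 0 were called and the median was 1.28. Of these genes, 10 had both dorsal levels above both lateral ones (24.9% of genes tested) and 2 the other way (27.8%), while 7 were more than 1 log2 unit higher in dorsal cells on both arrays (5.32%) and 1 was as much lower (2.76%). Their summed level was 1409171 and 1165431 in dorsal cells, against 43511 and 44005 in lateral cells, Rhag was well above background in no sample, Epb42 was so in the dorsal samples only, and Hbb-bs in 1 lateral sample only. The part of red blood cell RNA in the dorsal differences was not tested.

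Genes of acute stress gave no call, which is near the 0.378% called over all genes tested for lists this short. Of 11 immediate early genes, 12 heat shock, p53 and stress genes and 11 interferon response genes 0 passed, with medians of -0.51, 0.09 and 0.05, and -1.20, -1.06 and -1.17 with median centring. The 10 reference genes had a median of -0.29, and -1.30 with median centring, and 0 of them passed. Median centring moved the median of all genes tested to -0.16, against -0.02 with loess, and it moved bright genes further: the median shift was 0.13 in genes with a mean level under 8 and -1.18 in those of 14 and over.

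The 8 hours difference was then set beside the later ones, to ask which wall differences changed after 8 hours. Subtracting the mean of 1 to 14 days left 59 of 26414 genes (0.223%) with an adjusted p under 0.05, 41 with a positive change (0.155%) and 18 with a negative one (0.0681%), and 58 of these 59 (98.3%) were among the 100 called at 8 hours, as the 2 comparisons share the 8 hours arrays. Against the mean of 4 to 14 days 69 genes passed (0.261%), 53 of them positive (0.201%) and 16 negative (0.0606%). Against 1 day 22 passed (0.0832%), 14 positive (0.0529%) and 8 negative (0.0302%). Without 8 hours replicate 2 the 3 counts were 164, 157 and 115. Cyp4b1 had wall differences of 4.29, 0.05, 0.69, 0.00, -0.08 and -0.14 at 8 hours, 1, 2, 4, 7 and 14 days. Its 8 hours difference exceeded the later mean by 4.19 ± 0.33 (adjusted p = 0.000382) and passed in all 17 leave-one-out fits. Reg4 had 4.11, 0.65, 0.07, 0.38, -0.12 and 0.05 over the same times, 3.90 ± 0.43 above the later mean (adjusted p = 0.00278), and also passed in all 17 fits. On the 15 later arrays Cyp4b1 was well above background in 2 dorsal and 6 lateral samples and Reg4 in 4 dorsal and 3 lateral samples, so most of the signals behind their later ratios were not well above background. A dye effect at 8 hours need not cancel in their changes. The later ratios lay between -0.27 and 1.47 in Cyp4b1 and between -0.32 and 1.83 in Reg4.

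Dlx2 kept its lateral side for longer. Its difference was -3.99, -3.94, -2.71, -0.10, -0.17 and -0.99 at 8 hours, 1, 2, 4, 7 and 14 days, so that its change from the mean of 4 to 14 days was -3.57 ± 0.36 (adjusted p = 0.00212) and passed in all 17 leave-one-out fits. Dct had 5.08, 4.66, 4.76, -0.17, -0.68 and -1.30 over the same times, 5.80 ± 0.83 above the mean of 4 to 14 days (adjusted p = 0.0114), and did not pass without 8 hours replicate 1 (0.0947) or replicate 2 (0.0689). Dmrta2 had 4.30, 3.12, 3.45, 2.66, 1.38 and -0.87, and its change against the later mean did not pass (adjusted p = 0.39). Adgrf5 had -3.25 at 8 hours and between -0.05 and 0.01 later, a change of -3.23 ± 0.40 from the later mean (adjusted p = 0.0064). Nts had -2.64 at 8 hours and between -0.18 and 0.51 later, and Gata2 -2.88 at 8 hours and between -0.07 and 0.28 later. At the later times Adgrf5, Nts and Gata2 were well above background in 1, 3 and 2 dorsal and 1, 4 and 2 lateral samples of 15. In their changes, too, a dye effect at 8 hours need not cancel. Neither Nts nor Gata2 passed against the later mean without 8 hours replicate 1 (0.198 and 0.218).

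Fits that include the slide were also run for these changes. With the slide as a fixed block, over the 10 arrays of 3 slides that could be used, 0 genes passed in the comparison of 8 hours with 4 and 7 days, with 1742 at an unadjusted p under 0.05. Within the slide of 8 hours, against its 1 array each of 4 and 7 days, 0 passed and 2717 had an unadjusted p under 0.05. These 2 fits use 10 and 4 of the 17 arrays, so their 0 counts cannot tell a slide effect from the loss of arrays. With the slide as a random block over all arrays, 156 genes passed against the mean of 1 to 14 days, beside 59 without it. Against the mean of 4 to 14 days 140 passed, beside 69. The arrays of 1 and 14 days lay on slides of their own, where slide and time cannot be told apart. Against 1 day the count was 10 without 14 days replicate 1, 2 or 4, 11 without 4 days replicate 3, 12 without 7 days replicate 3 and 81 without 1 day replicate 3.

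**Figure D4:**
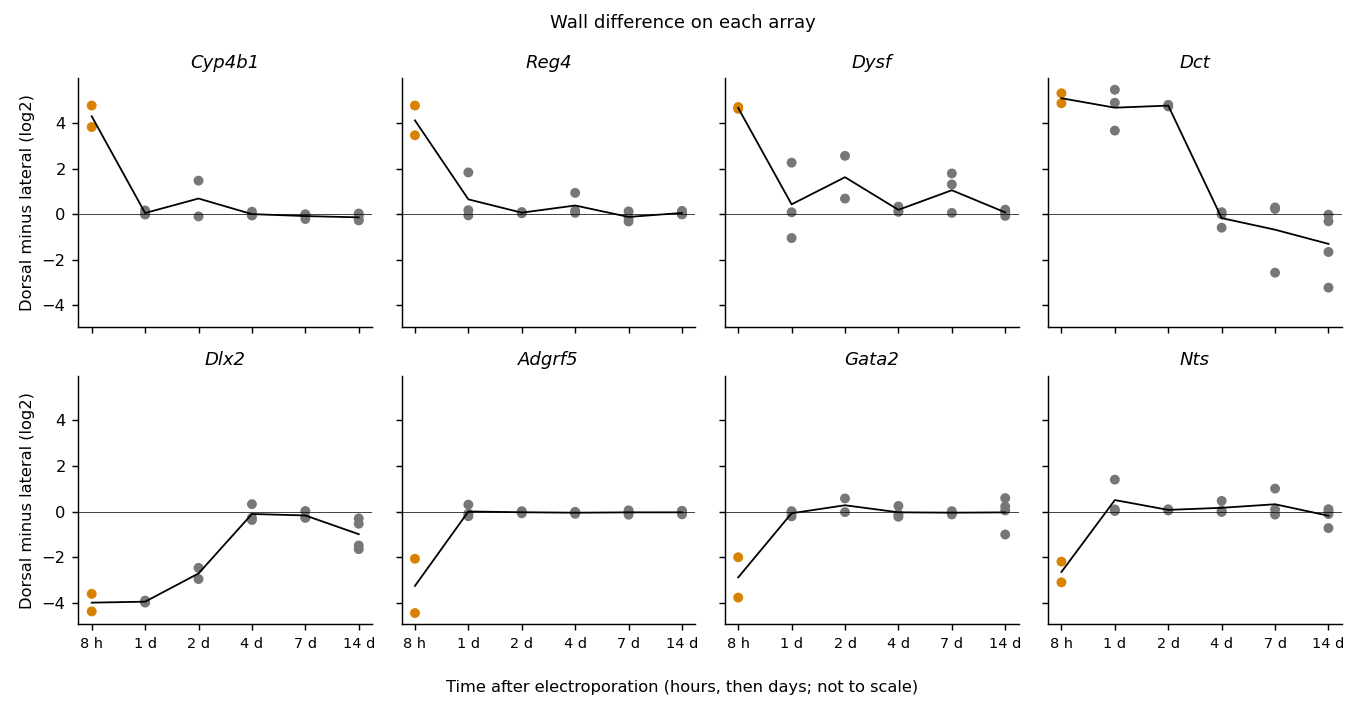
Dorsal minus lateral log2 ratio (y axis) of 8 genes on each of the 17 arrays by time after electroporation (x axis, not to scale), with a line through the means and the 8 hours arrays in orange. After 8 hours Cyp4b1, Reg4, Adgrf5, Gata2 and Nts are not well above background in most samples and stay under 2 log2 units in size on every array, whereas in the mean Dct and Dlx2 keep a difference of more than 2 log2 units up to 2 days. From 4 days on the mean of Dct has the other sign, and that of Dlx2 is smaller with its sign kept.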

How the data were processed

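The authors deposited linear intensity values per spot, extracted with Agilent Feature Extraction 10.7.3.1 at 8 hours and 10.5.1.1 at other times, per the file headers. Per the labels' protocols, 200 ng of cDNA from an undisclosed global PCR amplification was labelled, and such amplification can distort ratios. The scanner's log10 ratio, per the file headers red over green, was set against the deposited value table, which by this comparison held log2 of Cy3 over Cy5, with medians of -0.0095 and -0.0094 at 8 hours. The sources used here do not give its normalization.

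Mean signals and median local backgrounds of 41174 probes were corrected with normexp (offset 50), normalized by loess within arrays and Aquantile between them. Outlier-flagged spots (0.701 and 0.438% at 8 hours) were missing. Probes needed a signal well above background in 1 channel on 2 arrays (36785 probes), and a gene's brightest probe on average stood for it (26458 genes, 26414 where 14 days entered). Of the probes, 26876 were named by RefSeq accession, 3241 by symbol and 11057 as in the files. Levels are the normalized mean log2 intensity plus (dorsal) or minus (lateral) 0.5 times the log ratio. A time-point mean per gene was fitted over 17 arrays in limma 3.58.1 under R 4.3.3 with data.table (1.17.8), two-sided, with Benjamini-Hochberg adjustment over all genes and a threshold of 0.05; all adjusted p-values are limma's. Each SE is limma's moderated value from this fit over all times, not the spread of the 2 arrays of 8 hours alone. The fit was run on simulated data with independent normal values and the same spread per gene at all times. The real spread differed between times, so this checks the code and not the calls. For a gene well above background on neither array of a wall, a bound ("at least") is the brighter wall's mean against, per array, the higher of the lowest signal well above background and the gene's own, and dye bias can enter it. It bounds the mean of the 2 arrays, and a single array can lie below it. The number of arrays limits precision.

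Named genes were the 15 largest called differences in each direction with the same sign on both arrays, the 5 largest called changes in each direction with later times, and members of 36 gene lists, described by counts and medians; unnamed probes were left out. The members and lists were chosen with earlier results of these data known. Figures used matplotlib 3.10.9 under Python 3.11.15.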

Additional observations from a re-analysis of the deposited data

Results flagged for a closer look

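The genes below are those whose wall difference at 8 hours differed from that at later times by a test of the change itself (limma, adjusted p under 0.05). They are the 5 largest changes in each direction, as 8 hours minus later, on the log2 scale. In genes near background at the later times, a dye effect at 8 hours need not cancel. Their SE also draws on later ratios near background, which fits without 1 later array still use. Passing in such fits is therefore little support for these genes. Against the mean of 1 to 14 days, the dorsal side was larger at 8 hours by 4.19 in Cyp4b1, 3.98 in Dysf, 3.90 in Reg4, 3.76 in F2rl1 and 3.72 in Rin1. The change was -3.84 in Rpl39l, a ribosomal protein-like gene, -3.23 in Adgrf5, -2.90 in Gata2, -2.82 in Nts and -2.80 in Slc6a4. Leaving out 1 array at a time, Cyp4b1, Reg4 and Adgrf5 passed in all 17 fits and Rin1, Gata2 and Nts in 16, all but that without 8 hours replicate 1. Dysf passed in 12 (not without either array of 8 hours or any of 4 days), F2rl1 in 7, Rpl39l in 5 and Slc6a4 in 3. F2rl1 was lost without 8 hours replicate 1, 1 day replicates 1 and 2, any array of 4 days, 7 days replicates 1 and 2 or 14 days replicates 2 and 3. Rpl39l passed only without 1 day replicate 3, any array of 7 days or 14 days replicate 1, and Slc6a4 only without an array of 1 day. Rpl39l had levels of 8.02 and 6.88 in dorsal cells at 8 hours, against 11.22 and 10.08 in lateral cells, with an adjusted p of 0.0503 for that difference alone.

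Against the mean of 4 to 14 days, the changes were 5.80 in Dct, 4.36 in Cyp4b1, 4.31 in Rin1, 4.30 in Tcea3 and 4.22 in Dysf, and -3.57 in Dlx2, -3.23 in Ccl11, -3.22 in Adgrf5, -2.85 in Gata2 and -2.75 in Nts. Of these, Cyp4b1, Dlx2 and Adgrf5 passed in all 17 such fits, and Rin1, Gata2 and Nts in all but that without 8 hours replicate 1. Dct and Dysf did not pass without either array of 8 hours. Tcea3 passed in 11 fits, not without either array of 8 hours, any of 4 days or 14 days replicate 2, and Ccl11 in 1, that without 8 hours replicate 2.

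Against 1 day, they were 4.24 in Cyp4b1, 3.46 in Reg4, 2.92 in Slc51b, a bile acid transporter subunit, 2.77 in Cpn1, a carboxypeptidase subunit, and 2.37 in Il1f9, a member of the interleukin 1 family. On the other side they were -4.14 in Fam222b, -3.26 in Adgrf5, -3.15 in Nts, -3.08 in Psd and -2.43 in Tnfsf4. Cyp4b1, Il1f9 and Tnfsf4 passed in all 17 fits, and Slc51b, Cpn1, Fam222b and Psd in all but that without 8 hours replicate 1. On the 15 later arrays Cyp4b1, Il1f9, Tnfsf4 and Cpn1 were well above background in 2, 5, 1 and 2 dorsal and 6, 9, 1 and 2 lateral samples. Slc51b was so in 12 dorsal and 11 lateral samples, and Fam222b and Psd in all. Reg4 and Adgrf5 passed in 8 fits and Nts in 9. All 3 were lost without 1 day replicate 2, 4 days replicate 3, 7 days replicate 3 or any of 14 days replicates 1, 2 and 4. Reg4 was also lost without 8 hours replicate 2, 1 day replicate 1 or 7 days replicate 2, Adgrf5 without 1 day replicate 1, 4 days replicate 2 or 7 days replicate 2, and Nts without 8 hours replicate 1 or 4 days replicate 2. Fam222b and Psd differed from the rest in that the change came with a dorsal side at 1 day, 3.56 and 2.36, beside -0.58 and -0.73 at 8 hours.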

How the results depend on the processing

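The 4 counts of called genes were 100 at 8 hours, 59 against the mean of 1 to 14 days, 69 against the mean of 4 to 14 days and 22 against 1 day, and all values below keep that order. The scanner's processed signals gave 39, 24, 24 and 0 (the last with 1228 at an unadjusted p under 0.05), quantile normalization 48, 14, 23 and 4, and the authors' deposited values gave 6, 0, 0 and 0, with 994, 1253 and 1199 unadjusted beside the 0 counts. Median centring gave 124, of which 54 were higher and 70 lower in dorsal cells, then 25, 36 and 1. Probes above background in both channels on 2 arrays gave 51, 24, 33 and 10, probes above background on both 8 hours arrays 72, 38, 41 and 1, and no filter gave 45 in the last comparison, against 1 day. Array weights gave 662, 220 and 293 in the first 3, the slide as a random block (consensus correlation -0.173) 393, 156, 140 and 162, and leaving out 1 day replicate 1 and 14 days replicate 2 together gave 2 against 1 day. Leaving out 1 array at a time gave 63 to 190, 41 to 164, 48 to 157 and 10 to 115. The counts without 8 hours replicate 1 were 63, 51, 54 and 32, and those without replicate 2 were 190, 164, 157 and 115. With the replicate number as a block the counts were 63, 23, 26 and 0, the last with 1746 unadjusted. The numbers do not pair the samples: same-numbered arrays of other times had a mean deviation correlation of 0.004. The slide as a fixed block and the comparison within the slide, both chosen after seeing the data, gave 0 and 0, as did 8 hours alone and 8 hours with 1 and 2 days, as given above.

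All 30 genes with the largest differences kept their sign under every setting that measured them. They had been chosen with the same sign on both 8 hours arrays, so leaving out arrays or changing only the fit could not turn it. Only settings that change the signals, the normalization or the probes could. Of the 30, 9 passed with processed signals, 25 with median centring, 23 with quantile normalization and 4 with the deposited values. Cyp4b1, Reg4 and Dlx2 passed under 12 of the 14 alternatives that left out no single array, all but the 2 that used 8 hours alone or 8 hours, 1 day and 2 days. Reversed signs were -0.53 in Vim with median centring, and 0.0753 in Fam222b and 0.25 in Hydin with the mean over probes. List medians moved by more than 1 SD between the 2 arrays in 113 of 1147 pairs of list and setting. Many pairs could not move: the fitted 8 hours mean stays the same when a later array is left out. The share is therefore no measure of stability. The causes were not tested. The limit on depth is signal: 28 of the 74 genes called higher were well above background on neither lateral array.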

Other observations

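Signalling lists gave no called gene at 8 hours, which is near the 0.378% called over all genes tested for lists this short. The median differences were 0.37 in 13 Wnt pathway targets and 0.28 in 14 dorsal midline genes, and 0.01 and 0.13 with median centring. They were 0.26 in 11 Hedgehog, 0.30 in 15 Notch and 0.25 in 14 FGF and EGF genes, which turned to -0.15, -0.30 and -0.26 with median centring. Within the Notch pathway the members parted. The ligands Jag1 and Dll3 and the modifier Mfng, 3 of 15, were more than 1 log2 unit lower in dorsal cells on both arrays (2.76% of genes tested). The targets Hey1 and Hey2, 2 of 15, were more than 1 higher (5.32%). Neither ligands nor targets moved as 1 group: the ligands Dll1 and Jag2 had -0.79 and 0.61, the targets Hes5 and Heyl 1.40 and 0.21, and the modifier Lfng 0.30. Hes1, another Notch target, had 9.35 and 8.74 in dorsal cells, against 6.20 and 8.22 in lateral cells (1.83 ± 0.55, adjusted p = 0.294 by limma).

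Among lists of other cell types, the medians were 0.36 in 12 neuroblast genes and 0.18 in 12 interneuron genes (-0.16 and -0.20 with median centring), -0.50 in 12 mature neuron genes, -0.47 in 12 oligodendrocyte lineage genes, -0.16 in 10 choroid plexus genes, -0.05 in 14 meninges and fibroblast genes (0.38 with median centring) and -0.25 in 8 neutrophil genes. In each list 0 genes were called, where 0.378% of all genes tested were. Igfbpl1, a secreted protein of newborn neurons, had 12.66 and 13.41 in dorsal cells, against 10.84 and 10.83 in lateral cells (adjusted p = 0.144). The neutrophil granule genes Ngp and Camp stood on opposite sides on the 2 arrays, with dorsal minus lateral values of 3.90 and -3.16 in Ngp and 1.81 and -3.24 in Camp. The X-inactivation transcript Xist likewise had 2.78 on replicate 1 and -1.23 on replicate 2, in a list of 5 sex-linked genes with a median of -0.14.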
